A study of Mus musculus with 8 samples.

Results

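The 39 genes described here encode the machinery of macroautophagy and the receptors that bring cargo to it. They were chosen by function as a list of symbols, each found by its Ensembl identifier among the 52636 identifiers of the count table, and all 39 passed the filter on low counts that left 13847 genes for testing. In macroautophagy a membrane forms around cytoplasmic material, closes into an autophagosome and fuses with lysosomes, where the content is broken down. A kinase complex starts the process, a lipid kinase marks the membrane, and ubiquitin-like proteins of the ATG8 family are attached to it, to which cargo receptors bind. In microglia, the macrophages of the brain, the pathway is known to degrade protein aggregates, damaged mitochondria and components of inflammatory signalling.

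Primary murine microglia of wild-type (WT) C57BL/6 mice, in the methods C57BL/6N pups, were treated with vehicle or with 5 µg/ml lipopolysaccharide (LPS). LPS is a bacterial cell wall component that activates these cells, and RNA was sequenced after 24 h. There were 4 vehicle and 4 LPS libraries, all from cells kept in medium with serum and 10 ng/ml CSF-1, a growth factor of microglia. The cells had been shaken off mixed glial cultures of neonatal brains, so that cells of the astrocyte layer below could be carried along. The paper reports a high purity for its primary microglial cultures. The labels call the libraries biological replicates without naming the cultures or animals behind them. Vehicle libraries 1 to 4 held 22796052, 22595657, 26129375 and 21370879 counts, and LPS libraries 1 to 4 held 20071921, 22529706, 30604447 and 22581615. Levels are given as CPM, counts relative to library size after TMM normalization, and changes as log2 fold changes of LPS over vehicle with the edgeR quasi-likelihood test adjusted over all tested genes. The p-values measure the spread between libraries labelled as biological replicates.

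LPS replicate 3 stood apart from the other LPS libraries. Its TMM factor was 0.701, against 0.816 to 0.833 in the other LPS libraries. Of the 39 members, 23 (59.0%) had their highest LPS value in this library and 4 (10.3%) their lowest, whereas 41.0% of all tested genes had their highest and 33.6% their lowest LPS value there. Members whose call changes without this library are given with their value.

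The label of the cells was checked against 10 markers of microglia. Their summed level in vehicle replicates 1 to 4 was 8904, 9295, 10601 and 8935 CPM, led by Csf1r, the receptor of CSF-1. In LPS replicates 1 to 4 it was 2608, 2192, 2432 and 2196 CPM, led by Itgam. All vehicle libraries therefore held abundant microglial RNA, and the sum was lower in each LPS library, with 7 of the 10 markers lower and 1, Itgam, higher after LPS. Since these are bulk samples, fewer cells of a type and less RNA per cell cannot be told apart.

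The markers of each other cell type summed to less than the microglia markers in every library. In LPS libraries, however, the oligodendrocyte marker Cnp (mean 195 CPM) and the endothelial marker Flt1 (165 CPM) were above some microglia markers, such as Aif1 (126 CPM). Of the 10 astrocyte markers (9 tested) 1 was called higher and 3 lower, of the 6 markers of oligodendrocyte precursors (OPC; 5 tested) 3 lower, and of the 6 oligodendrocyte markers (4 tested) 1 higher and 1 lower. Of the 5 endothelial markers (3 tested) 3 were called higher, of the 5 fibroblast markers (1 tested) 1 higher, and of the 5 neuron markers (4 tested) 3 lower. The 10 astrocyte markers summed to 39.3, 48.5, 20.6 and 47.2 CPM in vehicle replicates 1 to 4 and to 125, 41.6, 45.8 and 49.6 CPM in LPS replicates 1 to 4. Aldh1l1 led the astrocyte sum in vehicle (11.6 ± 0.485 CPM; SD, n = 4), and Gja1, at 0.873 ± 0.221 CPM there, held most of it in LPS libraries (48.6 ± 33.2 CPM), where the mean of each other astrocyte marker was lower than in vehicle. The 6 OPC markers summed to 51.8, 82.1, 18.3 and 81.4 CPM in vehicle and to 20.8, 15, 1.87 and 16.9 CPM in LPS libraries, led by Ptprz1. Vehicle replicate 3 and LPS replicate 3 were the lowest of their groups in the OPC sum, and in the astrocyte sum only vehicle replicate 3 was. The 6 oligodendrocyte markers, led by Cnp, summed to 184, 174, 205 and 149.7 CPM in vehicle and 212, 225, 188 and 237 CPM in LPS libraries, and Mobp had no count in any library. The 5 endothelial markers, led by Flt1, summed to 31.0, 69.2, 34.8 and 73.5 CPM in vehicle and to 235, 254, 163 and 249 CPM in LPS libraries, while Cldn5 had no count and Tek at most 3 counts in any library. The endothelial sum was higher in every LPS library although its defining gene Cldn5 was at 0.

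The 5 fibroblast markers, led by Col1a1 in vehicle and by Dcn in LPS libraries, summed to 1.47, 0.311, 3.68 and 0.0710 CPM in vehicle and to 5.21, 7.08, 20.9 and 5.14 CPM in LPS libraries. The 5 neuron markers, led by Tubb3 in vehicle and by Gad1 in LPS libraries, summed to 15.6, 16.4, 6.47 and 19.0 CPM in vehicle and to 8.86, 3.59, 1.73 and 5.30 CPM in LPS libraries. The neuron sum was lower in 3 of the 4 LPS libraries than in every vehicle library, and the fibroblast sum was higher in every LPS library. That rise lay almost wholly in Dcn (0.136 ± 0.0886 CPM in vehicle, 8.90 ± 7.07 CPM in LPS libraries; SD, n = 4), while the collagens Col1a1, Col1a2 and Col3a1 had lower means in LPS libraries. With the replicate block Pdgfra and Ptprz1 of the OPC, Aldoc of the astrocyte and Tmem119 of the microglia markers were also called lower (edgeR adjusted p = 0.00639, 0.00810, 0.0103 and 0.000911).

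Some marker calls turned on single libraries. The lower call of the astrocyte marker Gfap was lost without LPS replicates 2 or 4 (edgeR adjusted p = 0.0582 and 0.0540) and without vehicle replicates 2 or 4 (0.0607 and 0.0676). That of the neuron marker Snap25 was lost without LPS replicates 2, 3 or 4 (edgeR adjusted p = 0.0516, 0.0502 and 0.0851) and without vehicle replicates 1, 2 or 4 (0.0898, 0.0609 and 0.0915). Lower calls were gained without LPS replicate 1 by Tmem119, Aldoc and Slc4a4 (edgeR adjusted p = 0.00659, 0.0185 and 0.0463) and without vehicle replicate 3 by Aldoc and Pdgfra (0.0491 and 0.0225). The part of these other cells in the changes of the autophagy genes was not tested.

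After LPS 24 of the 39 members (61.5%) had an edgeR adjusted p under 0.05, 13 of them higher and 11 lower, beside 64.1% of all 13847 tested genes. The share called was thus close to that of all genes, also by direction, at 33.3% of the members and 30.3% of all genes higher and 28.2% and 33.8% lower. A change of at least 1 on the log2 scale was found in 10 members (25.6%), against 37.7% of all tested genes. The groups did not overlap in 24 members (61.5%), against 60.2% of all tested genes. The median log2 fold change was 0.15 over the members and −0.11 over all tested genes, and without LPS replicate 3 the median of the members was 0.01.

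The direction of the smaller changes depended on the scaling. Scaling to total counts alone moved the median of all genes by −0.68 (log2), and upper quartile normalization moved it by −0.16. With total counts 19.0% of all calls were higher (1988 higher, 8457 lower), against 47.2% with TMM (4191 higher, 4686 lower). Among the members 6 were then higher and 25 lower, the latter including members not called with TMM, namely Atg13, Atg101, Pik3c3, Becn1, Atg14, Uvrag, Atg2b, Wipi1, Atg4c, Gabarapl2, Nbr1 and Bnip3l. Relative to the median of all genes the members' median was 0.26 higher with TMM and 0.24 higher with total counts. This difference was 0.15 without LPS replicate 3, 0.12 with at least 10 counts in every library and 0.41 without a filter on low counts. With TMM the summed level of the 39 members was 2750.1, 2513, 2649 and 2575 CPM in vehicle replicates 1 to 4. In LPS replicates 1 to 4 it was 3589, 4287, 5481 and 4331 CPM. The TMM factors, 1.21 to 1.32 in vehicle and 0.701 to 0.833 in LPS libraries, raise this sum in LPS libraries relative to vehicle. Sqstm1 held 11.6% to 13.7% of this sum in vehicle and 24.5% to 32.5% in LPS libraries.

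**Figure D1:**
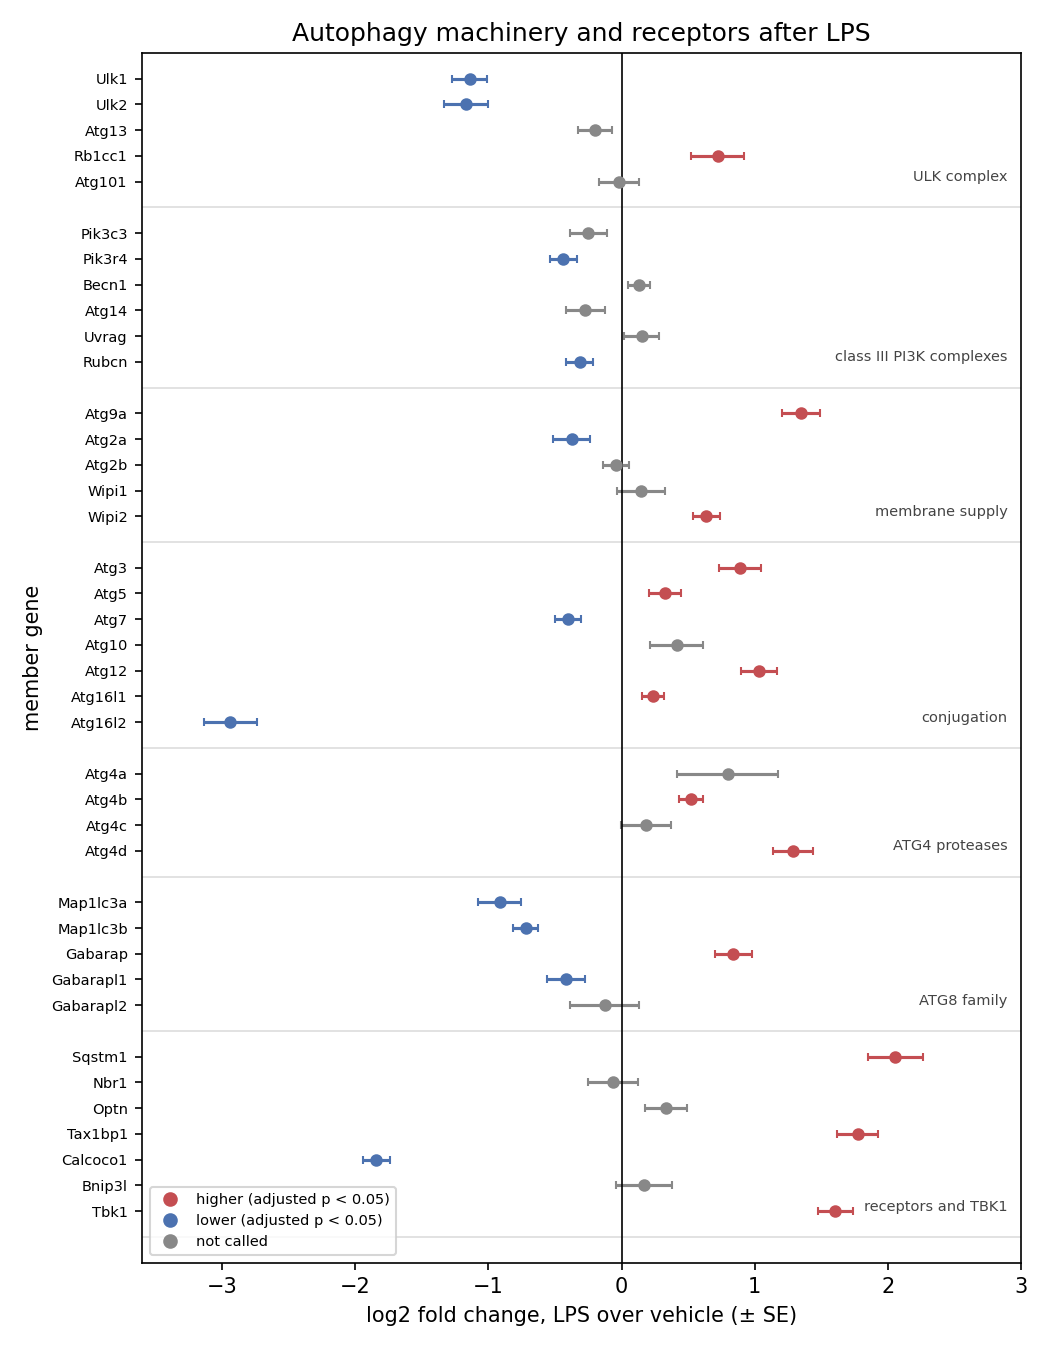
Log2 fold change of each of the 39 members, LPS over vehicle, with its SE as the bar (4 libraries per group); colours mark an edgeR adjusted p under 0.05, and genes are ordered by role. Changes run from −2.94 in Atg16l2 to 2.06 in Sqstm1, and under total count scaling the points of Wipi2, Atg5, Atg16l1 and Atg4b among those called higher turn below 0.

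In the ULK complex, which starts autophagosome formation, both kinases fell and the scaffold Rb1cc1 rose. Ulk1 (ENSMUSG00000029512; GRCm38 chromosome 5, 110784488 to 110810097) was at 64.3, 46.7, 51.7 and 49.4 CPM in vehicle replicates 1 to 4 and at 20.9, 27.0, 22.3 and 26.0 CPM in LPS replicates 1 to 4. Every LPS value lay below every vehicle value, and the log2 fold change was −1.14 (SE 0.13, edgeR adjusted p = 5.3e-05). Its paralog Ulk2 (ENSMUSG00000004798; chromosome 11, 61775649 to 61855073) had 118, 143, 133 and 148 CPM in vehicle and 43.4, 66.2, 74.2 and 57.7 CPM in LPS libraries. Its groups were also apart, with a change of −1.17 (SE 0.16, edgeR adjusted p = 0.000168). Rb1cc1, also known as FIP200, ranged from 53.0 to 56.3 CPM in vehicle and from 65.8 to 135 CPM in LPS libraries. Its log2 fold change was 0.72 (edgeR adjusted p = 0.01), which became 0.46 without LPS replicate 3 and 0.02 with total count scaling, where its call was lost. The bridging subunits Atg13 and Atg101 were not called, with changes of −0.20 and −0.02. Atg13 was called lower without LPS replicate 3 (−0.33, edgeR adjusted p = 0.00647), with upper quartile normalization and with total count scaling, and Atg101 with total count scaling. The estimate for Atg101 turned positive without LPS replicate 3 (0.10), without vehicle replicate 1 (0.02) and without vehicle replicate 3 (0.13), and was not called in any of these.

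The class III phosphatidylinositol 3-kinase complexes, which make the lipid mark of the forming membrane, held 2 called genes of 6 (33.3%), both lower. Of all tested genes 64.1% were called. The regulatory subunit Pik3r4 fell by 0.44 on the log2 scale (edgeR adjusted p = 0.00321) and Rubcn, an inhibitor of the complex with Uvrag, by 0.31 (edgeR adjusted p = 0.0222). The call of Rubcn was lost without LPS replicate 1 (adjusted p = 0.0533) and without vehicle replicates 2, 3 or 4 (0.0727, 0.0731 and 0.0827, all by edgeR). Becn1 (ENSMUSG00000035086; chromosome 11, 101285952 to 101302286), the scaffold of both complexes, was at 75.9, 75.9, 76.8 and 69.8 CPM in vehicle and at 84.9, 78.0, 85.6 and 78.0 CPM in LPS libraries. Although the groups did not overlap, the change of 0.13 (SE 0.08) was not called (edgeR adjusted p = 0.200), DESeq2 gave an adjusted p of 0.0484, and the sign turned with upper quartile (−0.03) and total count scaling (−0.55). Opposite the exons of Becn1, 43.9% of their length is shared with Cntd1, so its count is uncertain where the strand was not used, but Cntd1 itself averaged 0.159 ± 0.122 CPM in vehicle (SD, n = 4) and had no count in LPS libraries.

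Changes of the lipid kinase Pik3c3 (−0.25), its autophagy subunit Atg14 (−0.27) and the endosomal subunit Uvrag (0.15) were not called. Without LPS replicate 3, Pik3c3 (−0.39, edgeR adjusted p = 0.00466) and Atg14 (−0.41, edgeR adjusted p = 0.00973) were called lower. Both were also called lower with upper quartile and total count scaling, and Pik3c3 when at least 10 counts in every library were asked for. Without LPS replicate 1 the changes of Pik3c3 and Atg14 were −0.14 and −0.17, and neither was called (edgeR adjusted p = 0.320 and 0.309). Uvrag was at 0.07 without LPS replicate 3 and took a negative sign with upper quartile (−0.01) and total count scaling (−0.53). Antisense transcripts overlap 17.6% of the exon length of Uvrag.

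Among the genes of membrane supply, Atg9a, a transmembrane protein that seeds the membrane and moves lipids across its leaflets, rose most. Atg9a (ENSMUSG00000033124; chromosome 1, 75180860 to 75192196) had 34.0, 26.4, 26.4 and 25.7 CPM in vehicle and 89.0, 63.3, 63.6 and 70.5 CPM in LPS libraries. Replicate 1 was the highest of both groups, and the groups were apart, with a change of 1.35 (SE 0.14, edgeR adjusted p = 3.2e-05). On the same strand, 31.8% of its exon length is shared with Gm29253, which averaged 0.0922 ± 0.0443 CPM in vehicle and 0.122 ± 0.137 CPM in LPS libraries (SD, n = 4), so its count is uncertain. Wipi2, which binds the lipid mark and recruits the conjugation complex, rose from 48.4 to 56.9 CPM in vehicle to 75.2 to 92.2 CPM in LPS libraries (0.64, edgeR adjusted p = 0.000372), a call that was lost with a sign change to −0.05 under total count scaling. Its relative Wipi1 was not called (0.15; 0.01 without LPS replicate 3 and 0.32 without vehicle replicate 1) and turned to −0.02 with upper quartile and −0.55 with total count scaling. Atg2a, a lipid transfer protein, was called lower (−0.37, edgeR adjusted p = 0.0390), whereas Atg2b was not (−0.04). The call of Atg2a was lost with DESeq2 (adjusted p = 0.0710) and without 6 of the 8 libraries, namely LPS replicates 1 and 3 (edgeR adjusted p = 0.0765 and 0.0683; log2 fold change −0.27 without LPS replicate 3) and vehicle replicates 1 to 4 (0.193, 0.0668, 0.109 and 0.0898). Without vehicle replicate 1, its change was −0.23. The sign of Atg2b turned without LPS replicate 1 (0.02), without vehicle replicate 1 (0.03) and with the DESeq2 size factors (0.02), and with total count scaling it was called lower (−0.72, edgeR adjusted p = 0.000174).

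Of the 7 genes of the ATG12 and ATG8 conjugation systems, 4 were called higher (57.1%) and 2 lower (28.6%), beside 30.3% and 33.8% of all tested genes. Among those called higher, Atg5 and Atg16l1 lost their calls without several single libraries. Atg12 (ENSMUSG00000032905; chromosome 18, 46730144 to 46741580), the ubiquitin-like protein joined to Atg5, was at 67.5, 66.5, 74.0 and 69.6 CPM in vehicle and at 123, 135, 183 and 126 CPM in LPS libraries. All LPS values were higher than all vehicle values, with a change of 1.03 (SE 0.14, edgeR adjusted p = 0.000123). Atg16l2 (ENSMUSG00000047767; chromosome 7, 101263034 to 101302251), a paralog of Atg16l1, was at 16.1, 15.8, 12.4 and 16.0 CPM in vehicle and at 2.21, 1.52, 1.63 and 2.49 CPM in LPS libraries. This was the largest fall among the members, −2.94 (SE 0.20, edgeR adjusted p = 1.81e-06), and no value of the LPS group came near those of vehicle. Atg16l1, the paralog that places the conjugation complex on the membrane, changed by 0.24 (edgeR adjusted p = 0.0334), and the call was lost with the replicate block (adjusted p = 0.0778) and without LPS replicate 1 (0.0635), LPS replicate 4 (0.0635), vehicle replicate 2 (0.0658) or vehicle replicate 4 (0.0839).

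The transfer enzyme Atg3, which attaches ATG8 proteins to lipid, rose by 0.89 (edgeR adjusted p = 0.000860), and its call was lost with total count scaling at 0.19. Atg5 was called higher (0.33, edgeR adjusted p = 0.0346), although its groups overlapped. Its call was lost without LPS replicates 1, 2 or 3 (edgeR adjusted p = 0.0506, 0.0716 and 0.0532; log2 fold change 0.29 without LPS replicate 3) and without vehicle replicates 2 or 4 (0.0635 and 0.0563). With upper quartile normalization, without a filter and with at least 10 counts in every library, neither Atg5 nor Atg16l1 was called, and with total count scaling both were called lower (−0.35 and −0.44). The activating enzyme Atg7 fell by 0.40 (edgeR adjusted p = 0.00458), while Atg10, the transfer enzyme for Atg12, was not called (0.41, −0.28 with total count scaling). Its values were 10.2 to 10.6 CPM in LPS replicates 1, 2 and 4 and 17.6 CPM in LPS replicate 3. Its change was 0.19 without LPS replicate 3, and without vehicle replicate 3 it was called (0.54, edgeR adjusted p = 0.0468).

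The ATG4 proteases trim ATG8 proteins and release them from lipid. Atg4d (ENSMUSG00000002820; chromosome 9, 21265293 to 21277772) had 15, 15.2, 15.8 and 13.7 CPM in vehicle and 37.9, 41.9, 26.2 and 39.9 CPM in LPS libraries. LPS replicate 3 was the lowest of its group but still above all vehicle libraries, and the change was 1.29 (SE 0.15, edgeR adjusted p = 5.61e-05). The exons of Atg4d share 19.3% of their length with Kri1 on the opposite strand, which averaged 10.4 ± 0.585 CPM in vehicle and 10.3 ± 2.55 CPM in LPS libraries (SD, n = 4), so its count is uncertain. Atg4b rose by 0.52 (edgeR adjusted p = 0.000656), with −0.15 under total count scaling. Atg4a, at 0.381 to 1.41 CPM the lowest of the members, and Atg4c were not called (0.80 and 0.18). Atg4a was called without LPS replicate 1 (1.01, edgeR adjusted p = 0.0332), and 51.2% of its 50-base windows are shared with other transcripts, mainly a pseudogene. Atg4c had a negative sign without LPS replicate 3 (−0.03) and with total count scaling (−0.52).

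Within the ATG8 family, Gabarap rose while Map1lc3a, Map1lc3b and Gabarapl1 fell. Map1lc3b (ENSMUSG00000031812; chromosome 8, 121590361 to 121598760), the protein used most often to follow autophagosomes, was at 91.6, 81.2, 85.1 and 83.9 CPM in vehicle and at 44.9, 52.3, 55.8 and 54.3 CPM in LPS libraries. The groups were apart, and the change was −0.72 (SE 0.10, edgeR adjusted p = 0.000142). Map1lc3a fell from 14.1 to 20.7 CPM to 7.54 to 10.5 CPM (−0.91, edgeR adjusted p = 0.000760). Gabarap rose from 268 to 319 CPM in vehicle to 431 to 635 CPM in LPS libraries (0.84, edgeR adjusted p = 0.000552), and its call, not its direction, was lost with total count scaling (0.15). Gabarapl1 was called lower (−0.42, edgeR adjusted p = 0.0256), but not without vehicle replicate 1 (adjusted p = 0.0753) or vehicle replicate 4 (0.0610). An antisense gene overlaps 28.3% of the exon length of Gabarapl1. Gabarapl2, at 1.85 to 3.64 CPM, was not called (−0.13; 0.09 without vehicle replicate 1 and −0.81 with total count scaling), and 12.2% of its windows are shared with transcripts of other genes.

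Scaled by exon length, Gabarap made up 62.3%, 66.4%, 69.5% and 65.6% of the family in vehicle replicates 1 to 4 and 84.5%, 81.7%, 85.7% and 81.3% in LPS replicates 1 to 4. Its share was thus higher in every LPS library, on average 65.9 ± 2.96% against 83.3 ± 2.14% (SD, n = 4). Gabarapl1 went from 22.7 ± 2.05% to 12 ± 1.84%, Map1lc3a from 6.04 ± 0.885% to 2.28 ± 0.333% and Map1lc3b from 4.86 ± 0.235% to 2.09 ± 0.164%. The shares of these 3 and that of Gabarapl2, 0.487 ± 0.114% and 0.316 ± 0.0661%, were lower in every LPS library than in any vehicle library. Shares of a sum are tied to each other, so a higher share of Gabarap lowers the others without any change in their own level.

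**Figure D2:**
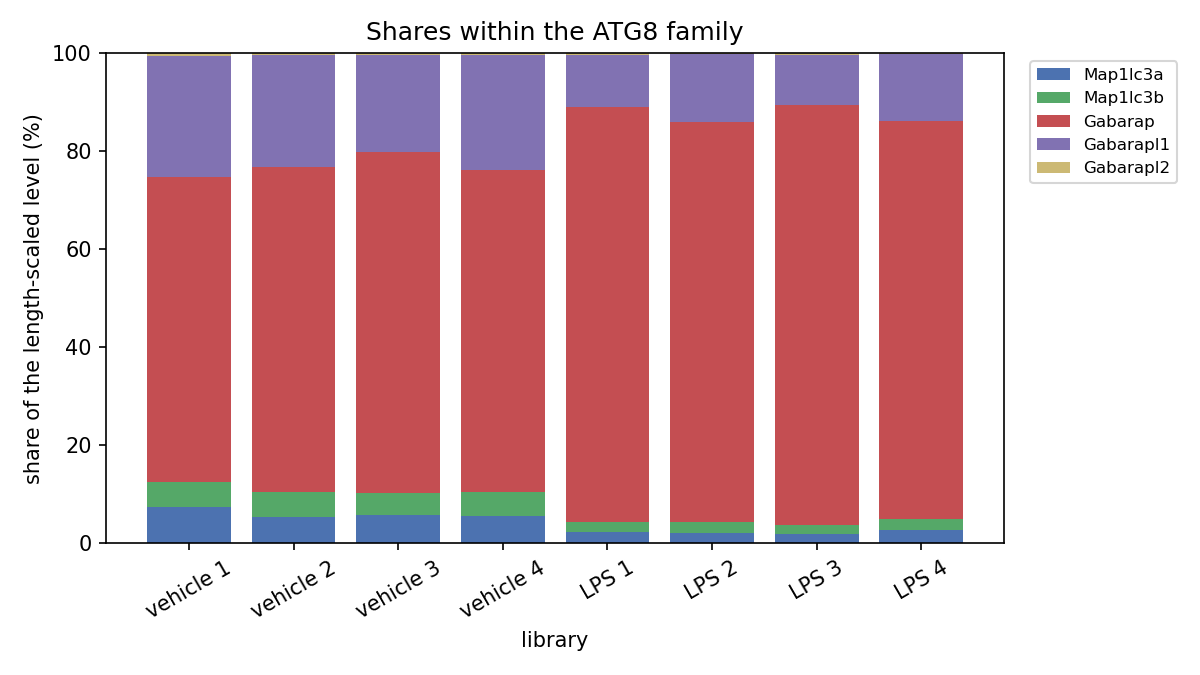
Share of each ATG8 family gene in the summed CPM per exon length of the 5 genes (y axis, percent), in each of the 8 libraries (x axis). Gabarap holds 62.3% to 69.5% in vehicle and 81.3% to 85.7% in LPS libraries.

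The largest rises of the members were those of the receptors Sqstm1 and Tax1bp1 and of the kinase Tbk1, while the other receptors were lower or not called. Sqstm1 (p62; ENSMUSG00000015837; chromosome 11, 50199366 to 50210827), which links ubiquitinated cargo to ATG8 proteins, was at 376, 292, 317 and 307 CPM in vehicle replicates 1 to 4 and at 879, 1346, 1750.2 and 1409 CPM in LPS replicates 1 to 4. LPS replicate 1 was the lowest and LPS replicate 3 the highest of their group, and both lay above all vehicle values. The change was 2.06 (SE 0.21, edgeR adjusted p = 2.3e-05), and leaving out single libraries gave 1.91 to 2.22. Mrnip on the opposite strand shares 17.3% of the exon length of Sqstm1, so its count is uncertain, with Mrnip at 0.481 ± 0.131 CPM in vehicle and 0.118 ± 0.143 CPM in LPS libraries (SD, n = 4). Tax1bp1 (ENSMUSG00000004535; chromosome 6, 52713729 to 52766780), another receptor of ubiquitinated cargo, was at 145, 136, 137 and 136 CPM in vehicle and at 412, 435, 629.6 and 417 CPM in LPS libraries. Apart from the high value of LPS replicate 3 the LPS libraries were close together, and the change was 1.77 (SE 0.15, edgeR adjusted p = 8.87e-06).

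Tbk1 (ENSMUSG00000020115; chromosome 10, 121546455 to 121586787), a kinase that phosphorylates such receptors, was at 107, 105, 112 and 99.2 CPM in vehicle and at 296, 293, 403 and 296 CPM in LPS libraries. LPS replicate 3 was again the highest of its group, and all LPS values were above those of vehicle (1.61, SE 0.13, edgeR adjusted p = 5.98e-06). Calcoco1 (ENSMUSG00000023055; chromosome 15, 102706777 to 102722178), a receptor for endoplasmic reticulum and Golgi membranes, went the other way, with 55.5, 45.6, 47.2 and 48.8 CPM in vehicle and 13.5, 14.7, 13.4 and 13.4 CPM in LPS libraries. Its LPS libraries were nearly alike and far below vehicle, with a change of −1.84 (SE 0.10, edgeR adjusted p = 5.77e-07). Nbr1, Optn and the mitophagy receptor Bnip3l were not called, with changes of −0.06, 0.33 and 0.17. Nbr1 had a positive sign without LPS replicate 1 (0.08) and was at −0.26 without LPS replicate 3 and −0.77 with total count scaling, and Optn was called higher without LPS replicate 1 (0.48, edgeR adjusted p = 0.00489) and with DESeq2 (adjusted p = 0.0426) but had a negative sign with total count scaling (−0.35). Bnip3l was at 129 CPM in LPS replicate 3 and 59.4 to 81.6 CPM in the others, and its sign turned without that library (−0.10) and with total count scaling (−0.53). A pseudogene shares 20.8% of the windows of Bnip3l.

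**Figure D3:**
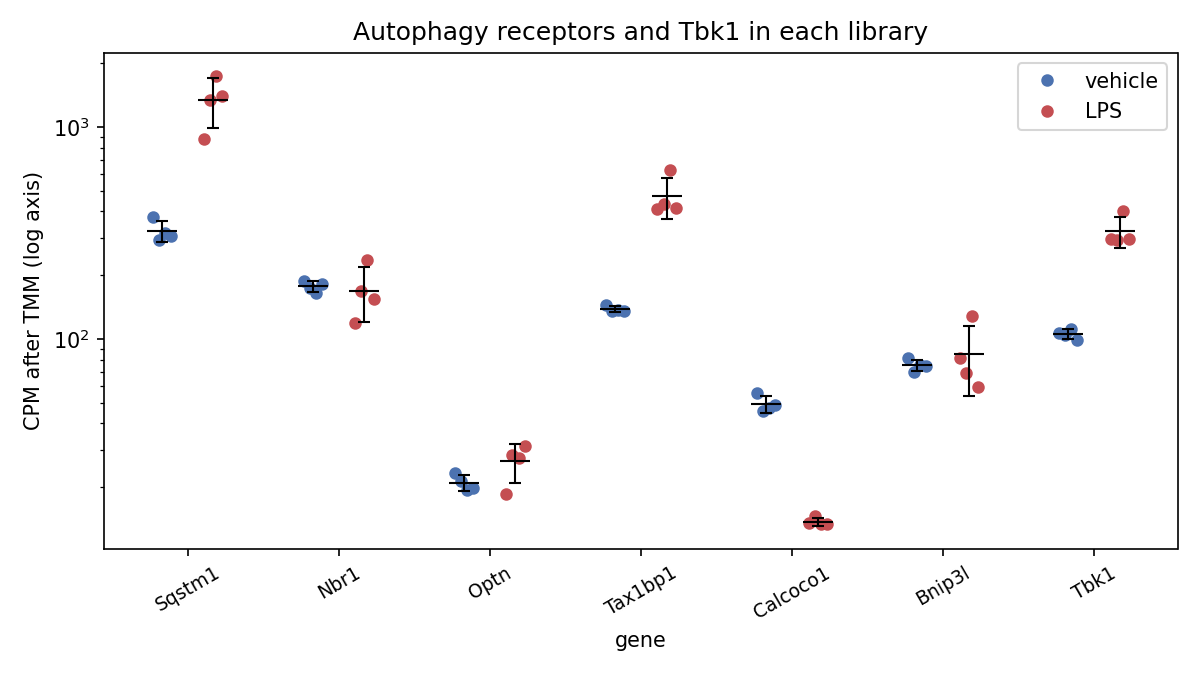
CPM of the receptors and Tbk1 (log y axis) in each of the 4 vehicle and 4 LPS libraries, with points for libraries and bars for the mean and SD. Sqstm1 lies at 292 to 376 CPM in vehicle and 879 to 1750.2 CPM in LPS libraries, and Calcoco1 at 45.6 to 55.5 and 13.4 to 14.7 CPM.

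To compare levels between genes, CPM were divided by exon length in kb (RPKM). In vehicle the highest members were Gabarap at 154.6 RPKM, Sqstm1 at 96.3 and Gabarapl1 at 53.1, and the lowest were Atg16l2 at 1.78, Gabarapl2 at 1.14 and Atg4a at 0.223 RPKM. In LPS libraries Sqstm1 came first at 401 RPKM, followed by Gabarap at 277, Tbk1 at 82.4 and Tax1bp1 at 47.4 RPKM. Tax1bp1 had been 11th by its vehicle level of 13.9 RPKM, and Calcoco1 went from 22nd (8.60 RPKM) to 36th (2.40 RPKM).

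Promoter windows of RefSeq (GRCm38.p6, 300 bases around each start) were found for 32 of the 39 members, 37 windows in all, and 5 motifs, chosen after the data had been seen, were searched on both strands. The E-box CACGTG was in 6 of the 37 windows (16.2%), those of Atg14, Atg3, Atg5, Atg7, Rubcn and Tbk1, and in 7.15% of all 32851 windows. The antioxidant response element TGACNNNGC was in 4 (10.8%) and in 12.4% of all, the core of NF-κB sites in 21 (56.8%) and in 50.8% of all, and the interferon-stimulated response element in 1 (2.70%) and in 3.44% of all. The AP-1 site TGANTCA was in 0 member windows and in 7.81% of all. The windows of the 4 called members with the largest changes follow, 5′ to 3′ with motif matches in capitals, where matches to the NF-κB core may overlap each other. Tax1bp1 has 2 windows, for its 2 starts.
Atg16l2, chr7:101302039-101302338, minus strand: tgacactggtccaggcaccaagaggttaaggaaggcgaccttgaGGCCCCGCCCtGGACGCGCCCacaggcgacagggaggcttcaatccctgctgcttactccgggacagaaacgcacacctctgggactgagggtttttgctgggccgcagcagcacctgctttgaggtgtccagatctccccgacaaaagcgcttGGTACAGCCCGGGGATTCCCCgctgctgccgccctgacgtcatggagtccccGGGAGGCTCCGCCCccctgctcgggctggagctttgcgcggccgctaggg
Sqstm1, chr11:50210771-50211070, minus strand: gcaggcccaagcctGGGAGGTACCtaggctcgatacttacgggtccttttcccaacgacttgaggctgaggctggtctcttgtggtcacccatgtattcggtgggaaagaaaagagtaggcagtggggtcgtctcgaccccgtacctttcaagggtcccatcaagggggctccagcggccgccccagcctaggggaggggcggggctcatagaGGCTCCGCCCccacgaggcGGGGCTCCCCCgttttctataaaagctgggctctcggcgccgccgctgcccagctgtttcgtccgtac
Calcoco1, chr15:102722129-102722428, minus strand: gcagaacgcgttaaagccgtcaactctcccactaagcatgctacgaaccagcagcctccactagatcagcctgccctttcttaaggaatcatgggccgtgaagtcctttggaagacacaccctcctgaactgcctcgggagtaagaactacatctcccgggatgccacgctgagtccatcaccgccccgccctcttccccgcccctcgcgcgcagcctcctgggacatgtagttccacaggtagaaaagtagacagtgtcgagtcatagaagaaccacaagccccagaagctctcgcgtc
Tax1bp1, chr6:52713479-52713778, plus strand: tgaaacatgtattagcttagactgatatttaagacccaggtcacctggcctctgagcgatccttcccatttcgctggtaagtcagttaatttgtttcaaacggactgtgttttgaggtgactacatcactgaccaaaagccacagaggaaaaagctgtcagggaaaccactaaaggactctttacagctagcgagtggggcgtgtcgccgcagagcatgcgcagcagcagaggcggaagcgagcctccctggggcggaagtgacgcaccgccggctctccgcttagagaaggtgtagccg
Tax1bp1, chr6:52713915-52714214, plus strand: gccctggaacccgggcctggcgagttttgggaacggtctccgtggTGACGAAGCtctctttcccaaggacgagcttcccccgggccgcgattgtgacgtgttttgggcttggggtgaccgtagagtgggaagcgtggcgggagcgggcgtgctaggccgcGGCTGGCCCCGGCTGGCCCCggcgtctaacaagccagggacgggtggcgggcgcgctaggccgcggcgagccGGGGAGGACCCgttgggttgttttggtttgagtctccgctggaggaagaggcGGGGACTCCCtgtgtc
In these windows the capitals mark the NF-κB core except for 1 match to TGACNNNGC in the downstream window of Tax1bp1, while Calcoco1 and the upstream window of Tax1bp1 hold no match. A match describes the letters of the window and not a bound site.

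The 87 related autophagy genes, in 5 lists chosen by function, included 84 tested genes, of which 21 (25.0%) were called higher and 35 (41.7%) lower, beside 30.3% and 33.8% of all tested genes. With total count scaling 6 were higher and 65 lower. Their median log2 fold change was −0.20, against −0.11 over all tested genes.

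In the other core machinery, 5 of 14 tested genes were higher and 6 lower. C9orf72 rose most (1.48, SE 0.23, edgeR adjusted p = 0.000359), from 40.5 to 48.4 CPM in vehicle to 82.3 to 193 CPM in LPS libraries. Of its complex partners, Wdr41 fell (−1.39, SE 0.12, edgeR adjusted p = 7.62e-06) and the abundant Smcr8 rose (0.67, edgeR adjusted p = 0.00889; −0.02 with total count scaling). The lipid scramblase Vmp1 rose as well (1.36, SE 0.15, edgeR adjusted p = 4.69e-05). Wdfy3, a large scaffold of aggregate clearance and the most abundant gene of the list, rose by 0.62 (edgeR adjusted p = 0.00185; −0.05 with total count scaling). Trp53inp1, a binding partner of ATG8 proteins, fell most (−2.44, SE 0.33, edgeR adjusted p = 0.000132).

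Other receptors were mostly lower, with 4 of 15 tested genes higher and 10 lower. Bnip3, a mitophagy receptor, was near the floor in vehicle (0.0952 to 0.315 CPM) and at 2.87 to 8.21 CPM after LPS (4.92, SE 0.49, edgeR adjusted p = 1.98e-05), and 47.2% of its windows are shared with other transcripts, so its count is uncertain. Pink1, the kinase that marks damaged mitochondria, fell from 49.6 to 70.5 CPM to 10.7 to 14 CPM (−2.29, SE 0.14, edgeR adjusted p = 9.98e-07). Ncoa4, the receptor for ferritin, fell by 2.21 (edgeR adjusted p = 2.7e-05), and 17.9% of its windows are shared with Gm6768. Tollip rose by 0.80 (edgeR adjusted p = 0.000714). The most abundant genes, Rtn3 and Fkbp8, rose by 0.74 and 0.76 (edgeR adjusted p = 0.00224 and 0.0147), but the groups of Fkbp8 overlapped through LPS replicate 3. The calls of Tollip, Rtn3 and Fkbp8 were lost with total count scaling. Of the lower genes, Stbd1 lost its call without each library but LPS replicate 3 (edgeR adjusted p = 0.0610 to 0.129), and Retreg1 without LPS replicates 1, 2 or 4 or vehicle replicates 2, 3 or 4 (0.0745 to 0.127). Sec62 lost it without LPS replicates 2 or 4 or vehicle replicates 1, 3 or 4 (edgeR adjusted p = 0.0505 to 0.0870).

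Of the 14 genes of autophagosome fusion, 2 were higher and 4 lower. The SNARE proteins Ykt6 and Snap29 rose by 0.82 and 0.78 (edgeR adjusted p = 0.000315 and 0.000258), while the SNARE Stx17 fell by 0.68 (edgeR adjusted p = 0.00172) and Rilp by 1.60 (edgeR adjusted p = 0.000853). With total count scaling the calls of Ykt6 and Snap29 were lost. The other lower genes, Vps18 and Vps39, both lost their calls without LPS replicate 1 (edgeR adjusted p = 0.0657 and 0.0999) and without vehicle replicate 2 (0.0906 and 0.0917), 3 (0.150 and 0.131) or 4 (0.0804 and 0.0816), which left 2 genes lower. Vps18 also lost it without vehicle replicate 1 (edgeR adjusted p = 0.132), and Vps39 without LPS replicates 2 or 4 (0.131 and 0.118). Vps41 was called lower without LPS replicate 3 (−0.41, edgeR adjusted p = 0.00286), and Vamp8 higher without vehicle replicate 3 (0.36, edgeR adjusted p = 0.0168). The abundant Plekhm1 (0.35; 0.55 and edgeR adjusted p = 0.0150 without LPS replicate 1, −0.32 with total count scaling) and Rab7 (−0.07; 0.00 without vehicle replicate 1 and 0.01 without vehicle replicate 3) were not called. Transcripts of other genes share 12.7% of the windows of Rab7.

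Among the inputs through mTORC1 and AMPK, 9 of 33 tested genes were higher and 10 lower. Deptor, an inhibitor of mTOR, fell from 15.4 to 26.9 CPM to 0.120 to 0.649 CPM (−5.62, SE 0.34, edgeR adjusted p = 1.08e-06), and Sesn1, a leucine-sensing inhibitor of mTORC1, from 168 to 231 CPM to 4.31 to 7.62 CPM (−5.04, SE 0.22, edgeR adjusted p = 1.78e-07). Ddit4, an mTORC1 inhibitor induced by stress, rose by 2.17 (SE 0.33, edgeR adjusted p = 0.000275), with 15.1 CPM in LPS replicate 1 and 5.73 to 6.97 CPM in the other LPS libraries. The AMPK subunit Prkab1 rose by 1.64 (SE 0.10, edgeR adjusted p = 9.1e-07). The abundant Fnip2 rose by 0.83 (edgeR adjusted p = 0.00516; 0.14 with total count scaling, where its call was lost), whereas Rragc was not called (−0.10; 0.00 without vehicle replicate 3). With the replicate block the AMPK catalytic subunit Prkaa2 was called lower (−1.62, edgeR adjusted p = 0.00935), and the calls of Tbc1d7 and Slc38a9 were lost (edgeR adjusted p = 0.0577 and 0.0544). Prkaa2 was also called lower without vehicle replicate 3 (edgeR adjusted p = 0.0432), and Sesn3 without LPS replicate 3 (−0.94, edgeR adjusted p = 0.0209). The call of Tbc1d7 was also lost without LPS replicate 4 or vehicle replicate 4 (edgeR adjusted p = 0.0555 and 0.0570), and that of Slc38a9 without LPS replicate 4 (0.0520).

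Of 8 factors that control transcription of autophagy and lysosome genes, those of the MiT/TFE and FOXO families and the zinc finger factor Zkscan3, 1 was higher and 5 lower, Zkscan3 among them (−0.54, edgeR adjusted p = 0.00663). Tfeb fell from 21.9 to 28.1 CPM to 3.64 to 9.04 CPM (−1.95, SE 0.29, edgeR adjusted p = 0.000263) and Foxo4 by 1.61 (SE 0.13, edgeR adjusted p = 4.9e-06). Tfe3, the most abundant of the list, rose by 0.79 (SE 0.09, edgeR adjusted p = 6.29e-05; 0.12 with total count scaling, where its call was lost). Mitf was not called (−0.19), but was lower without LPS replicate 3 (−0.40, edgeR adjusted p = 0.0162), and Tfec was called lower with the replicate block (−0.96, edgeR adjusted p = 0.00129), without LPS replicate 3 (−1.34, edgeR adjusted p = 0.0177) and without vehicle replicate 2 (−1.12, edgeR adjusted p = 0.0456). Foxo1, called lower, lost its call without each library but LPS replicate 3 (edgeR adjusted p = 0.0515 to 0.0952).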

How the data were processed

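The authors filtered, aligned (GSNAP, GRCm38) and counted single-end reads with HTSeqGenie, kept uniquely aligned reads and deposited raw counts per Ensembl gene and library. The labels and the methods name different library kits and sequencers, and neither states the strand setting of counting or the annotation release. Symbols, positions, exon lengths and overlaps came from GENCODE vM21, and shared sequence was checked with 50-base windows of transcripts. Each column of the count table belongs to 1 library.

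Counts were tested with edgeR 4.0.16 in R 4.3.3 (TMM, filterByExpr at its count limit of 10 and total limit of 15, quasi-likelihood test, two-sided) on all 13847 genes that passed, with Benjamini-Hochberg adjustment over all of them and a threshold of 0.05. The SE is the absolute log2 fold change divided by the square root of the F statistic. DESeq2 1.42.0 gave an alternative Wald test and size factors. The fits were tested on simulated data, where DESeq2 made more false calls than edgeR. These counts were drawn with the dispersions of the edgeR fit and with a far smaller share of changed genes than was called here. They therefore cannot rank edgeR and DESeq2 on the real data. Tables were made in Python 3.11.15 with numpy 2.4.6 and pandas 2.3.3, and figures with matplotlib 3.10.9. Counts up to 3 were the floor, for counting error only.

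Members with an adjusted p under 0.05 and an absolute log2 fold change of at least 1, and Sqstm1, Map1lc3b, Ulk1 and Becn1, are given in each library. Of each related list the 2 largest rises, the 2 largest falls and the 2 most abundant genes are named, and genes whose call changed with the replicate block or without a single library were added after their values were seen. The members and lists were chosen with earlier results of these data known. Alternatives were other scalings, filters, tests and thresholds, a replicate block, and leaving out each library.

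Whether libraries with the same number share a culture is not stated. In 8010 genes whose log2 CPM averaged 3 or more, deviations of same-numbered vehicle and LPS libraries from their group means correlated with r of 0.373, 0.196, 0.171 and 0.108, all over the limit of 0.1 taken for pairs. Of differently numbered pairs, vehicle 2 with LPS 4 (0.146) and vehicle 4 with LPS 2 (0.137) were also over it. The closest libraries, LPS replicates 2 and 4, were further apart than counting alone gives (6.45 as chi-square over its degrees of freedom).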

Additional observations from a re-analysis of the deposited data

Results flagged for a closer look

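In 9 of the 78 groups of 4 libraries, taken over the 39 members, the gap between an extreme library and the next was over the Dixon limit, given as a share of the group's range, which about 1 in 20 groups passes by chance. In LPS replicate 3 this was the highest value of Tbk1 (0.969 of the range; 403 CPM against 293 to 296), Atg10 (0.940; 17.6 against 10.2 to 10.6) and Tax1bp1 (0.894; 629.6 against 412 to 435). In vehicle replicate 1 it was the highest value of Atg9a (0.918; 34.0 against 25.7 to 26.4), Tax1bp1 (0.878; 145 against 136 to 137) and Atg2a (0.844; 79.9 against 59.7 to 62.8). The others were the lowest vehicle values of Atg16l2 in replicate 3 (0.922; 12.4 against 15.8 to 16.1) and of Becn1 in replicate 4 (0.877; 69.8 against 75.9 to 76.8), and the highest LPS value of Calcoco1 in replicate 2 (0.878; 14.7 against 13.4 to 13.5).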

How the results depend on the processing

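Of the 24 called members, 19 had the same call in the same direction without each single library and with the replicate block, and 12 had it under all alternatives. The replicate block gave 9044 called genes against 8877, ended the call of Atg16l1, and changed no other call of a member. Among related genes it changed those of Prkaa2, Tfec, Tbc1d7 and Slc38a9.

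Leaving out single libraries gave 8031 to 9314 called genes, 11 to 14 members higher and 8 to 13 lower, a median of the members of 0.0126 to 0.205, and 19 to 22 related genes higher and 28 to 39 lower. It turned the sign of uncalled genes only. Among the members and the related genes named for size or level, log2 fold changes ran from −0.0943 to 0.129 in Atg101, −0.0634 to 0.0340 in Atg2b, −0.0344 to 0.299 in Atg4c, −0.270 to 0.0891 in Gabarapl2, −0.262 to 0.0810 in Nbr1, −0.0998 to 0.316 in Bnip3l, −0.0806 to 0.0128 in Rab7 and −0.187 to 0.00349 in Rragc. The cause was not tested.

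Total count scaling gave 6 members higher and 25 lower, 6 related genes higher and 65 lower, and a median of the members of −0.546. Log2 fold changes turned sign in Becn1 (−0.547), Uvrag (−0.532), Wipi1 (−0.546), Wipi2 (−0.0481), Atg5 (−0.355), Atg10 (−0.283), Atg16l1 (−0.437), Atg4b (−0.152), Atg4c (−0.515), Optn (−0.349), Bnip3l (−0.534), Smcr8 (−0.0242), Wdfy3 (−0.0465) and Plekhm1 (−0.324), and in the other related genes called higher Ambra1 (−0.355), Rheb (−0.276), Tbc1d7 (−0.266), Slc38a9 (−0.249) and Prkaa1 (−0.312). Further uncalled related genes turned sign as well, with this scaling and without single libraries. This scaling omits the TMM factors, which are higher in vehicle, and so lowers all LPS values relative to vehicle. Upper quartile normalization gave a median of the members of −0.0164 and turned Becn1 (−0.0253), Uvrag (−0.00918) and Wipi1 (−0.0164). The DESeq2 size factors turned Atg101 (0.0343) and Atg2b (0.0153), and so did the DESeq2 test (0.0340 and 0.0160). With an absolute log2 fold change of at least 0.5 there were 6 members lower, by construction.

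With the longest transcript as length, mean shares in vehicle and LPS libraries were 4.90% and 1.82% for Map1lc3a, 6.74% and 2.84% for Map1lc3b and 19.2% and 9.95% for Gabarapl1. Without single libraries the share of Gabarap was 64.8% to 67.2% in vehicle and 82.5% to 83.9% in LPS libraries. Depth limits mainly Atg4a, Gabarapl2 and, in LPS libraries, Atg16l2, which had the lowest CPM. A batch that follows the groups cannot be told apart from LPS.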
